A study of Mus musculus with 6 samples.

Results

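The genes described here are 9 genes that are widely used as marks of macrophages, monocytes and other myeloid cells, measured in cultures of mouse CD8+ T cells. They are Lyz2, Cst3, Tyrobp, Fcer1g, Csf1r, Cd68, Cd14, Itgam and Lgals3. They were chosen by name, with earlier results of these data known, and all 9 were found among the 24589 genes of the expression table. Primary CD8+ T cells of WT genotype, which per the study's methods were purified with magnetic beads from C57BL/6 spleens and peripheral lymph nodes, were activated with antibodies to CD3 and CD28. They were then cultured for 24 h with 20 µM TVA (trans-vaccenic acid, a trans fatty acid of ruminant milk and meat) or with DMSO, the solvent, and each group had 3 libraries. The labels do not say whether the replicates came from separate mice or cultures, so the p-values measure the spread between these libraries, which may be technical. The comparison asked which transcripts differ in CD8+ T cells after TVA.

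Myeloid cells are the phagocytes of innate immunity. They engulf microbes and dead cells, digest them in lysosomes, and sense bacterial products, antibodies and growth factors through surface receptors. Many of these receptors have no signalling tail of their own and work through small adaptor proteins such as the products of Tyrobp and Fcer1g. Several of the genes are not exclusive to myeloid cells, since cystatin C (Cst3) is made by most tissues and galectin-3 (Lgals3) is also made by activated T cells.

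A pair of sequence comparisons shows what the reads of these genes can and cannot tell apart. Lyz2 encodes lysozyme of macrophages and neutrophils, and its neighbour Lyz1 encodes the closely related lysozyme of intestinal Paneth cells. In GRCm38, Lyz2 lies at chr10:117277331-117282321 on the minus strand and Lyz1 at chr10:117287797-117292868 on the same strand. Their coding sequences, both of 444 bases in the GENCODE vM21 transcripts, differ at 22 bases (95.05% identity). Within the 150 coding bases from position 7 to 156, counted from 1 at the start codon, 15 of these differences lie close together, and they are in capitals:
Lyz2: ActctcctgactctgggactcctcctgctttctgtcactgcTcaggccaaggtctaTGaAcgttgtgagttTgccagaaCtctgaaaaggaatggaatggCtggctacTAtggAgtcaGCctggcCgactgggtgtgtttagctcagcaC
Lyz1: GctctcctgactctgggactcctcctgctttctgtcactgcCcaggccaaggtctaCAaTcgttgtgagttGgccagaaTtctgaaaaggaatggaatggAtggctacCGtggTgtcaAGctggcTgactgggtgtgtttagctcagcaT
Of all 50-base stretches of the Lyz2 transcript, 15.4% were also found in Lyz1, so reads from those stretches could be given to either gene. Lyz1 was listed at 0 to 0.03 TPM in the 6 libraries, against 28.9 to 41.3 TPM for Lyz2. TPM is a relative level that is corrected for transcript length and has one common total for all libraries.

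Tyrobp (DAP12) lies at chr7:30413760-30417585 on the plus strand and Fcer1g (the common gamma chain of Fc receptors) at chr1:171229572-171234365 on the minus strand of GRCm38. Their coding sequences were searched for the immunoreceptor tyrosine-based activation motif, the pair of tyrosine sites through which such adaptors recruit the kinases Syk and Zap70. Of the 9 genes, 2 held it, these adaptors, each in a run of 15 codons. The coding bases of the motif are printed because these genes share this function and their levels are compared with each other, with the tyrosine codons and the paired leucine or isoleucine codons in capitals:
Tyrobp: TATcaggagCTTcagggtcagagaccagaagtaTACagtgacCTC
Fcer1g: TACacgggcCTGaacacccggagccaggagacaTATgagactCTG
Neither gene shared any 50-base stretch of its transcript with another gene.

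With TVA, 2 of the 9 genes rose past the threshold (limma, adjusted p under 0.05) and 0 fell. They were Lyz2 and Tyrobp, with log2 changes of 0.38 and 0.57. At that adjusted threshold, 5.28% of all 10866 genes tested were called higher and 3.23% lower. All 9 genes passed the filter for low values (at least 1 TPM in at least 3 libraries), but Csf1r passed only through its TVA libraries, so it had to differ between the groups. At an unadjusted p under 0.05, 5 of the 9 genes (4 of the 8 without Csf1r) were higher and 0 lower, where 21.5% of all genes tested were higher and 10.3% lower. The groups did not overlap, with TVA higher, for 5 of the 9 genes and for 4 of the 8 left without Csf1r, and the share over all genes tested was 27.3%. In the other direction the count was 0 of 9, against 11.2% of all genes tested. The median log2 change was 0.21 over the 9 genes and 0.15 over the 8, beside 0.04 over all genes tested. In bulk libraries such as these, more cells of a type and more RNA per cell cannot be told apart.

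**Figure D1:**
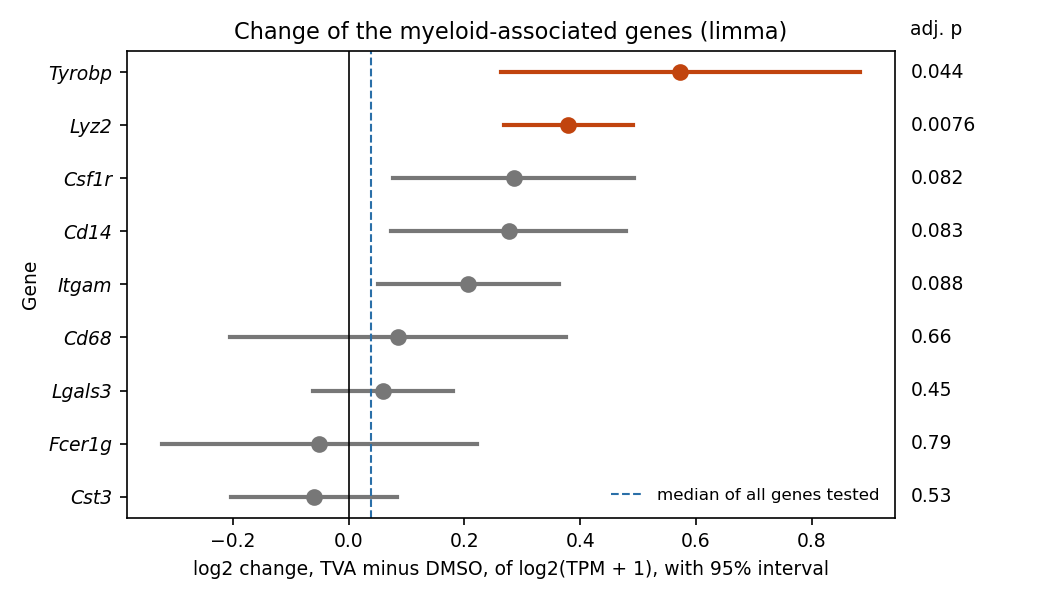
Fitted log2 change of each of the 9 genes, TVA minus DMSO, of log2(TPM + 1), with its 95% interval (3 libraries a group) and, at the right, the limma adjusted p. Tyrobp and Lyz2, drawn in colour, passed the threshold of 0.05, the dashed line is the median of all genes tested (0.04), and Fcer1g and Cst3 lie below 0.

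The levels spanned a wide range. With DMSO, Cst3 had the highest level, at 151 to 176 TPM, and Csf1r the lowest, at 0.64 to 0.82 TPM. Between them came Lyz2, Lgals3, Fcer1g, Tyrobp, Cd68, Itgam and Cd14, in that order of mean TPM. The neighbours Lyz2 and Lgals3, Tyrobp and Cd68, and Itgam and Cd14 overlapped in their DMSO values. With TVA the order of the means was unchanged, while Lyz2 no longer overlapped Lgals3, Tyrobp no longer overlapped Cd68, and Tyrobp now overlapped Fcer1g. The summed level of the 9 genes was 252 to 275 TPM under DMSO and 266 to 277 TPM under TVA, of which Cst3 held 56.0% to 64.3%. Without Cst3 the sum was 99.2, 102 and 90.9 TPM in replicates 1, 2 and 3 under DMSO and 113, 117 and 112 TPM in replicates 1, 2 and 3 under TVA, so these sums did not overlap.

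**Figure D2:**
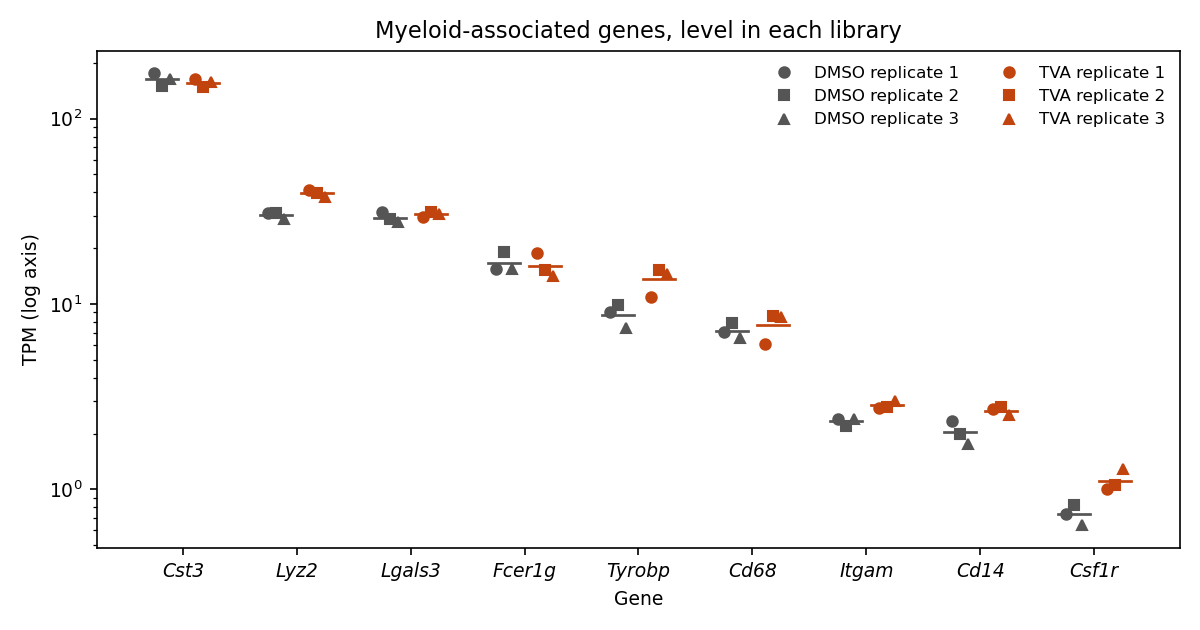
TPM of each gene in each library on a log axis, with genes in order of their mean with DMSO. Points are libraries (marker shape gives the replicate number) and short lines are group means (n = 3). The TVA points of Lyz2, Tyrobp, Itgam, Cd14 and Csf1r lie above all DMSO points of the same gene, and the Cst3 points lie far above those of the other genes.

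Lyz2, whose product cleaves bacterial cell walls, had 30.9, 31.0 and 28.9 TPM in replicates 1, 2 and 3 under DMSO. In TVA replicates 1, 2 and 3 it had 41.3, 39.8 and 38.0 TPM. The lowest TVA library lay well above the highest DMSO library, and the spread within each group was small. The mean level rose from 30.3 ± 1.18 to 39.7 ± 1.63 TPM (SD, n = 3), a ratio of 1.31 and a log2 change of 0.38 (SE 0.048, 95% interval 0.27 to 0.49, limma adjusted p 0.0076). The adjusted p of Lyz2 ranged from 0.0037 to 0.054 over 14 alternative settings and passed the threshold in 13 of them, the exception being the fit without TVA replicate 2. Set against Lgals3, which had a like level with DMSO, the Lyz2 TPM was 0.992, 1.08 and 1.04 times as high in the DMSO libraries and 1.39, 1.27 and 1.24 times as high in the TVA libraries.

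Tyrobp had 9.05, 9.82 and 7.42 TPM in replicates 1, 2 and 3 under DMSO and 10.9, 15.3 and 14.5 TPM in replicates 1, 2 and 3 under TVA. The groups did not overlap, but TVA replicate 1 lay closer to the highest DMSO library than to the other TVA libraries. The mean level rose from 8.76 ± 1.23 to 13.6 ± 2.32 TPM (SD, n = 3), with a log2 change of 0.57 (SE 0.13, 95% interval 0.26 to 0.88, limma adjusted p 0.044). Of 14 alternative settings, 7 kept Tyrobp past the threshold. The call was lost without DMSO replicate 1 (adjusted p 0.055), DMSO replicate 3 (0.11), TVA replicate 2 (0.17) or TVA replicate 3 (0.16), and also with no filter (0.090), without the variance trend (0.052) and with a replicate block (0.064).

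Fcer1g, the other adaptor, had 15.4, 19.2 and 15.4 TPM in replicates 1, 2 and 3 under DMSO and 18.9, 15.3 and 14.1 TPM in replicates 1, 2 and 3 under TVA. One library in each group stood above the other two, and the groups overlapped. The log2 change of Fcer1g was -0.05 (SE 0.12, 95% interval -0.32 to 0.22, limma adjusted p 0.79), and its sign turned without DMSO replicate 2 (0.05) or without TVA replicate 3 (0.03). The ratio of Tyrobp to Fcer1g TPM was 0.586, 0.513 and 0.481 in the DMSO libraries and 0.580, 0.997 and 1.03 in the TVA libraries. TVA replicate 1 therefore lay within the DMSO range of this ratio and the other TVA libraries above it, and the difference between the changes of these genes was not tested.

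The adaptors act with ligand-binding receptors and kinases. A broad list of 24 such receptors, adaptors and kinases was examined, and not all of them, Clec7a for one, need Tyrobp or Fcer1g. Of the 24, 10 were tested, of which 1 rose and 1 fell (median log2 change 0.03). At an unadjusted p under 0.05 (limma), 3 were higher and 2 lower. Clec7a (dectin-1, a receptor for fungal glucans) rose from 8.11, 9.38 and 8.89 TPM in the DMSO libraries to 10.4, 10.7 and 10.99 TPM in the TVA libraries (log2 change 0.26, limma adjusted p 0.045), and it passed in 3 of 13 alternative settings. Fcer1a, the IgE-binding chain of the receptor that uses the Fcer1g chain, fell from 6.86, 7.48 and 7.72 TPM to 5.13, 5.20 and 5.34 TPM (log2 change -0.42, limma adjusted p 0.011). Neither gene overlapped between the groups, and they moved in opposite directions. The kinase gene Syk had 2.22 to 2.84 TPM under DMSO and 2.29 to 2.48 TPM under TVA (log2 change -0.03, adjusted p 0.83). Its T cell relative Zap70 had 224, 152 and 176 TPM under DMSO and 149, 142 and 144 TPM under TVA (log2 change -0.33, adjusted p 0.12). Without DMSO replicate 1 the log2 change of Zap70 was -0.18, and without DMSO replicate 2 it was -0.45 (adjusted p 0.015). Hcst (DAP10), an adaptor that works without this motif, had 42.6, 54.7 and 54.8 TPM under DMSO and 46.7, 45.0 and 48.7 TPM under TVA (log2 change -0.11, adjusted p 0.46, but -0.22 and 0.028 without DMSO replicate 1). Klrk1 (NKG2D), its receptor, had 15.3 to 16.4 TPM under DMSO and 16.6 to 17.2 TPM under TVA, and Cd247, the zeta chain of the T cell receptor, 31.0 to 36.0 and 35.3 to 37.1 TPM. Their log2 changes of 0.09 and 0.13 did not pass the test (adjusted p 0.23 and 0.18), though Cd247 passed without DMSO replicate 2 (adjusted p 0.028).

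Csf1r, the receptor for the macrophage growth factors CSF1 and IL-34, had 0.74, 0.82 and 0.64 TPM in replicates 1, 2 and 3 under DMSO and 1.00, 1.06 and 1.28 TPM in replicates 1, 2 and 3 under TVA. The groups did not overlap, but the levels lay about the filter, which only the TVA libraries reached. The log2 change of Csf1r was 0.28 (SE 0.089, 95% interval 0.08 to 0.49) with a limma adjusted p of 0.082, and with a pseudocount of 0.1 in place of 1 it was 0.54. Without the variance trend the adjusted p was 0.048. Exons of Csf1r overlap those of Hmgxb3 on the opposite strand in GENCODE vM21, and Hmgxb3 had 24.5 to 29.0 TPM, so a small share of its reads could alter the Csf1r value if strand was not used. Of the ligands, Csf1 had 1.99, 2.10 and 1.78 TPM under DMSO and 1.68, 1.75 and 1.76 TPM under TVA (log2 change -0.11, adjusted p 0.31), and Il34 was listed at 0 in every library. A broader list of 11 genes held the ligands of Csf1r, receptor kinases related to it, and other colony-stimulating factors with their receptors. Of these, 6 were tested and 0 passed (limma, median log2 change -0.15). At an unadjusted p under 0.05, 1 was higher (Csf2) and 3 were lower (Csf2ra, Csf2rb and Csf2rb2). None of them is a ligand of Csf1r or a related kinase.

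Cd14, which hands bacterial lipopolysaccharide to Toll-like receptors, had 2.34, 2.00 and 1.75 TPM in replicates 1, 2 and 3 under DMSO and 2.70, 2.77 and 2.51 TPM in replicates 1, 2 and 3 under TVA. Every TVA library lay above every DMSO library. The log2 change was 0.28 (SE 0.087, 95% interval 0.07 to 0.48), and it did not pass the test (limma adjusted p 0.083). It passed in 2 of 13 alternative settings, without DMSO replicate 1 (adjusted p 0.044) and after a GC correction (0.048). Tlr4, the lipopolysaccharide receptor itself, was listed at 0.18 to 0.35 TPM and was not tested. Its partner Ly96 (MD-2) had 1.84, 3.50 and 2.02 TPM under DMSO and 2.70, 3.43 and 3.31 TPM under TVA, with overlap (log2 change 0.29, adjusted p 0.27, but 0.50 and 0.016 without DMSO replicate 2). Of 13 listed partners of Cd14 and Toll-like receptors, 11 were tested and 0 passed (limma, median log2 change 0.04), with 1 lower at an unadjusted p under 0.05.

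Itgam (CD11b), the alpha chain of complement receptor 3, had 2.40, 2.19 and 2.39 TPM in replicates 1, 2 and 3 under DMSO and 2.74, 2.77 and 3.01 TPM in replicates 1, 2 and 3 under TVA. The groups were tight and did not overlap, with a log2 change of 0.21 (SE 0.067, 95% interval 0.05 to 0.36, limma adjusted p 0.088). The adjusted p of Itgam ranged from 0.051 to 0.27 over 13 alternative settings, so none passed. Of its 50-base stretches, 73.9% are shared with Gm49368, an overlapping gene model on the same strand that was not analysed here, so the Itgam level depends on how the authors' annotation treated that model. Itgb2, the beta chain that Itgam shares with the lymphocyte integrin LFA-1, had a far higher level, 151 to 171 TPM under DMSO and 178 to 180 TPM under TVA (log2 change 0.14, adjusted p 0.11). Itgax (CD11c), another alpha chain, had 0.69 to 1.07 TPM and was not tested. The other 8 listed genes were those of this integrin family, its ligands (Icam1 and Icam2) and its intracellular partners (Fermt3 and Tln1). Of these, 6 were tested and 0 passed (limma, median log2 change -0.06). At an unadjusted p under 0.05, 1 was higher (Itgb2) and 2 were lower (Icam1 and Fermt3, which are not integrin genes).

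Cd68, a glycoprotein of lysosomes, had 7.10, 7.88 and 6.52 TPM in replicates 1, 2 and 3 under DMSO and 6.07, 8.61 and 8.50 TPM in replicates 1, 2 and 3 under TVA. TVA replicate 1 was the lowest of all libraries for Cd68 while the other TVA libraries were the highest, and the groups overlapped (log2 change 0.08, SE 0.12, 95% interval -0.20 to 0.37, limma adjusted p 0.66). TVA replicate 1 also had the lowest Tyrobp and the highest Fcer1g of the TVA libraries. Without it the log2 change of Cd68 was 0.23 and that of Tyrobp 0.71 (adjusted p 0.048).

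Cst3 encodes cystatin C, a secreted inhibitor of cysteine cathepsins. It had 176, 151 and 164 TPM in replicates 1, 2 and 3 under DMSO and 164, 149 and 157 TPM in replicates 1, 2 and 3 under TVA. The groups overlapped, and the log2 change was -0.06 (SE 0.062, 95% interval -0.20 to 0.08, limma adjusted p 0.53). The other 13 listed genes, all of them tested, were lysosomal proteases, cystatins and the lysosomal membrane proteins Lamp1 and Lamp2. At an unadjusted p under 0.05, 5 of them were higher, Lamp1 included, and 1 was lower. Past the threshold, 4 rose and 0 fell (limma, median log2 change 0.11). These were the cathepsin genes Ctsb, Ctsc, Ctsl and Ctss, which encode cysteine proteases of the lysosome, with log2 changes of 0.23, 0.18, 0.25 and 0.21 (limma adjusted p 0.021, 0.042, 0.049 and 0.036). With median-of-ratios scaling the calls of Ctsc, Ctsl and Ctss were lost (adjusted p 0.092, 0.071 and 0.089), as they were with quantile normalization (0.087, 0.065 and 0.066). Of the alternative settings, Ctsb passed in 9 of 14, Ctsc in 3 of 14, Ctsl in 3 of 13 and Ctss in 5 of 14. Ctss, the most abundant of them, had 87.7, 95.2 and 96.5 TPM under DMSO and 105, 110 and 109 TPM under TVA. Cst7 (cystatin F), the inhibitor made by cytotoxic lymphocytes, had 291 to 329 TPM under DMSO and 268 to 286 TPM under TVA (log2 change -0.17, adjusted p 0.076).

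Lgals3, a galactose-binding lectin, had 31.2, 28.8 and 27.8 TPM in replicates 1, 2 and 3 under DMSO and 29.6, 31.4 and 30.6 TPM in replicates 1, 2 and 3 under TVA. The groups overlapped, with a log2 change of 0.06 (SE 0.052, 95% interval -0.06 to 0.18, limma adjusted p 0.45). Lgals1, the galectin with which it is often compared, had 181 to 234 TPM under DMSO and 216 to 219 TPM under TVA (log2 change 0.06, adjusted p 0.67). Of 6 listed galectins and partners other than Lgals3, 5 were tested, 0 rose and 1 fell (median log2 change 0.06). This was Lgals3bp, a secreted protein that binds galectin-3, at 68.6, 67.3 and 62.4 TPM under DMSO and 56.6, 57.7 and 58.2 TPM under TVA (log2 change -0.20, limma adjusted p 0.041).

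Other genes of macrophages and monocytes were listed beside these 9. Of 28 such genes, 13 were tested, of which 5 rose and 1 fell (median log2 change 0.21), where 5.28% of all genes tested rose and 3.23% fell. At an unadjusted p under 0.05 (limma), 10 were higher and 3 lower, beside 21.5% and 10.3% of all genes tested. The summed level of the 28 was 144 to 154 TPM under DMSO and 173 to 180 TPM under TVA. Ctss alone held 87.7 to 96.5 TPM of it under DMSO and 105 to 110 TPM under TVA. Cybb, the catalytic subunit of the phagocyte NADPH oxidase, rose from 5.61, 6.22 and 6.35 TPM to 8.84, 8.74 and 8.88 TPM (log2 change 0.48, limma adjusted p 0.0063). It passed in all 13 alternative settings run. Clec4d, a C-type lectin receptor, rose from 4.36, 5.54 and 5.08 TPM to 8.04, 7.31 and 7.39 TPM (log2 change 0.52, limma adjusted p 0.016). Mpeg1 (perforin-2, a pore-forming protein of phagocytes) rose from 4.88, 6.67 and 5.78 TPM to 7.74, 8.44 and 8.11 TPM (log2 change 0.43, limma adjusted p 0.038). Of 13 alternative settings, Clec4d passed in 8 and Mpeg1 in 5. The remaining genes that rose were Clec7a and Ctss, given above, and the calls of Mpeg1, Clec7a and Ctss were lost after median-of-ratios scaling (adjusted p 0.056, 0.081 and 0.089). Ccr2, the chemokine receptor of inflammatory monocytes, fell from 1.85, 2.06 and 1.90 TPM to 1.08, 1.40 and 1.21 TPM (log2 change -0.40, limma adjusted p 0.032). It passed in 8 of 13 alternative settings.

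The other 15 genes of that list were under 1 TPM in every library. Adgre1 (a defining surface mark of macrophages) had 0.26, 0.50 and 0.45 TPM under DMSO and 0.57, 0.78 and 0.89 TPM under TVA. Fcgr1, the high-affinity IgG receptor, had 0.15, 0.16 and 0.13 TPM and 0.44, 0.54 and 0.56 TPM. Of the 15 genes, none of which passed the filter for the reported fit, the groups did not overlap for 3 with TVA higher (Adgre1, Fcgr1 and C1qc) and for 2 with TVA lower (Cd33 and Mertk), and 10 overlapped. The tissue macrophage genes Mrc1 and Cd163 were at or near 0, with 0 to 0.03 and 0.01 to 0.08 TPM. Of 11 myeloid transcription factors, 5 were tested and 0 passed (limma, median log2 change -0.26), with 2 lower at an unadjusted p under 0.05. Spi1 (PU.1), on which myeloid cells depend, had 3.11, 1.91 and 2.57 TPM under DMSO and 1.62, 2.27 and 1.69 TPM under TVA (log2 change -0.30, adjusted p 0.19, but -0.43 and 0.044 without DMSO replicate 2), with overlap and a sign opposite to that of Lyz2 and Tyrobp.

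Genes of other myeloid cell types did not move in 1 direction. Of 15 neutrophil genes, 4 were tested, of which 2 rose and 0 fell, and their summed level was 12.4 to 16.7 TPM under DMSO and 19.1 to 22.4 TPM under TVA. S100a8 had 7.35, 5.93 and 9.81 TPM under DMSO and 9.02, 11.4 and 9.06 TPM under TVA. Its groups overlapped, as did those of Mmp8, and neither passed (limma adjusted p 0.19 and 0.83). S100a9, a calcium-binding protein of neutrophils and monocytes, rose from 2.12, 2.90 and 3.76 TPM to 6.05, 6.25 and 5.20 TPM (log2 change 0.82, limma adjusted p 0.021). The granule enzyme gene Mpo rose from 1.20 to 1.36 TPM under DMSO to 1.97 to 2.09 TPM under TVA (log2 change 0.41, limma adjusted p 0.019). S100a9 and Mpo each passed in 8 of 13 alternative settings. The defining neutrophil gene Ly6g was listed at 0 in all libraries except TVA replicate 1, where it had 0.06 TPM. Of 14 dendritic cell genes, 7 were tested, of which 1 rose and 5 fell (median log2 change -0.45). The genes that fell were Batf3, a transcription factor of dendritic and activated T cells (log2 change -0.26, limma adjusted p 0.038, but -0.05 and 0.71 after the GC correction), and the MHC class II genes H2-Aa, H2-Ab1, H2-Eb1 and Cd74, with log2 changes of -0.49, -0.64, -0.68 and -0.45 (limma adjusted p 0.024, 0.0083, 0.0036 and 0.016). Ccr7, the lymph node homing receptor that T cells also carry, rose (log2 change 0.24, limma adjusted p 0.026). Of 8 mast cell and basophil genes, from cells that also use the Fcer1g chain, 7 were tested, of which 0 rose and 2 fell, with a summed level of 44.2 to 45.2 TPM under DMSO and 37.8 to 38.5 TPM under TVA. These were Fcer1a, given above, and Hdc, the histamine-forming enzyme, which fell from 3.22, 2.89 and 2.54 TPM to 1.82, 1.60 and 1.76 TPM (log2 change -0.51, limma adjusted p 0.017). Over these 4 lists of myeloid cell types, 31 of 65 genes were tested, and 8 rose and 8 fell (median log2 change 0.03). The full dendritic cell list summed to 679 to 747 TPM under DMSO and 781 to 787 TPM under TVA. Without Ccr7, which held most of its level, the dendritic cell list summed to 146 to 160 TPM under DMSO and 110 to 112 TPM under TVA, and the MHC class II genes alone to 113 to 126 and 80.9 to 84.6 TPM. The summed levels were thus higher with TVA for the macrophage, neutrophil and full dendritic cell lists, with no overlap. They were lower for the mast cell list and for the dendritic cell list without Ccr7, also with no overlap. The macrophage sum includes Ctss, at 87.7 to 96.5 TPM under DMSO and 105 to 110 TPM under TVA, and no sum without Ctss was made. The part of these lists in the changes of the 9 genes was not tested.

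**Figure D3:**
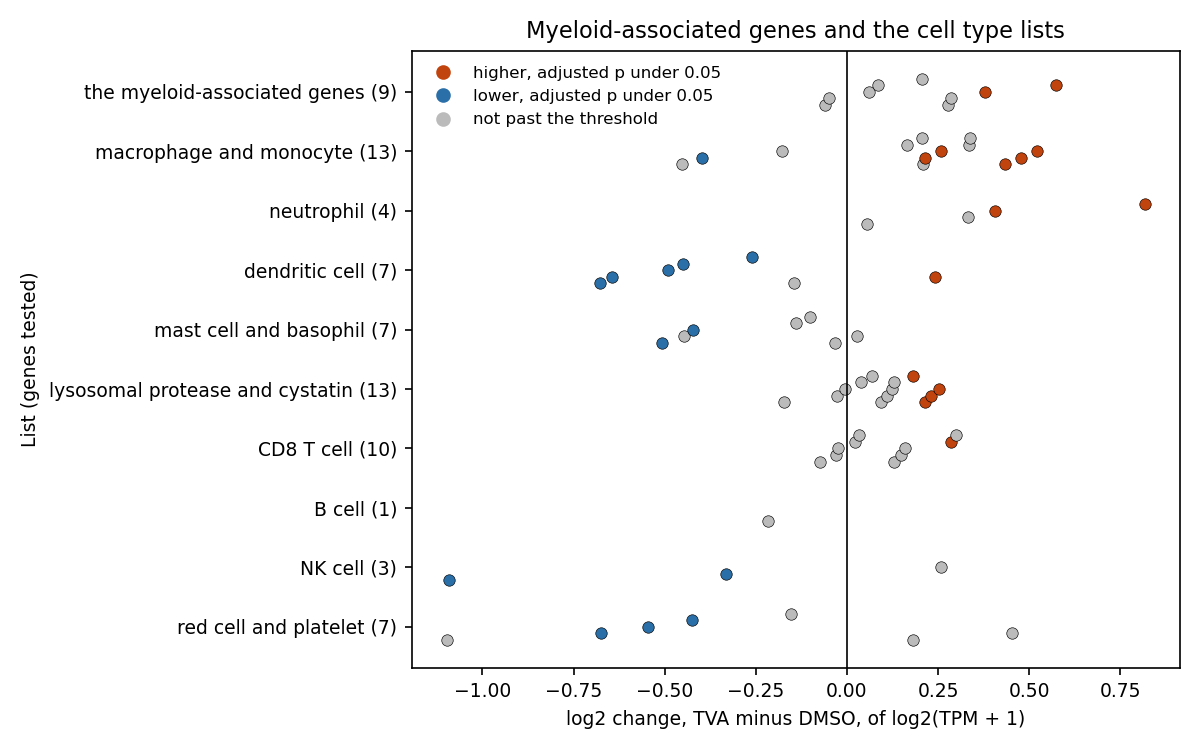
Fitted log2 change, TVA minus DMSO, of log2(TPM + 1), for the 9 genes and for each gene tested of the cell type and lysosomal lists, with 1 point per gene and the number tested in brackets. Points are coloured by the limma call (threshold 0.05), and heights within a line carry no value. Both calls among the 9 genes lie above 0, as do 5 of 6 among the macrophage and monocyte genes, while 5 of 6 among the dendritic cell genes lie below 0.

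The T cell identity of the libraries was plain in their levels. The 10 listed genes of CD8 T cells summed to 2884 to 3146 TPM under DMSO and 3188 to 3228 TPM under TVA, and 1 of them, the T cell receptor chain gene Cd3g, rose (log2 change 0.28, limma adjusted p 0.0063). Cd8a, the co-receptor chain, had 274 to 300 TPM under DMSO and 312 to 318 TPM under TVA (log2 change 0.15, adjusted p 0.068, and 0.012 without DMSO replicate 2).

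Several features of the whole table touch these results. The libraries correlated at 0.989 to 0.999 across genes (Pearson, log2 TPM, genes are not independent replicates), and DMSO replicate 2 correlated more closely with the TVA libraries (0.996) than with the other DMSO libraries (0.993 and 0.995). Without DMSO replicate 2 the log2 changes of Lyz2 and Tyrobp were 0.40 and 0.65 (limma adjusted p 0.0037 and 0.018), and 38 in place of 27 of the 104 listed genes outside the 9 that were tested were called. Over all 10866 genes tested, 2242 in place of 925 were called. Log2 changes fell with transcript GC content across the genes tested (Spearman rho -0.40, a description). Lyz2 transcripts have a GC content of 48.3%, and those of the other 8 genes 50.7% to 57.2%. After the GC correction the log2 changes of Lyz2 and Tyrobp were 0.33 and 0.59 (limma adjusted p 0.0065 and 0.033), and the part of GC content in the differences was not tested further. Of the genes called in the whole table, 62.1% were higher with TVA, but with median-of-ratios scaling the share was 35.4% and with quantile normalization it was 46.1%. After these scalings the 27 calls among the listed genes, 12 higher and 15 lower, became 7 higher and 18 lower, and 8 higher and 14 lower. Lyz2 and Tyrobp passed under both scalings.

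**Figure D4:**
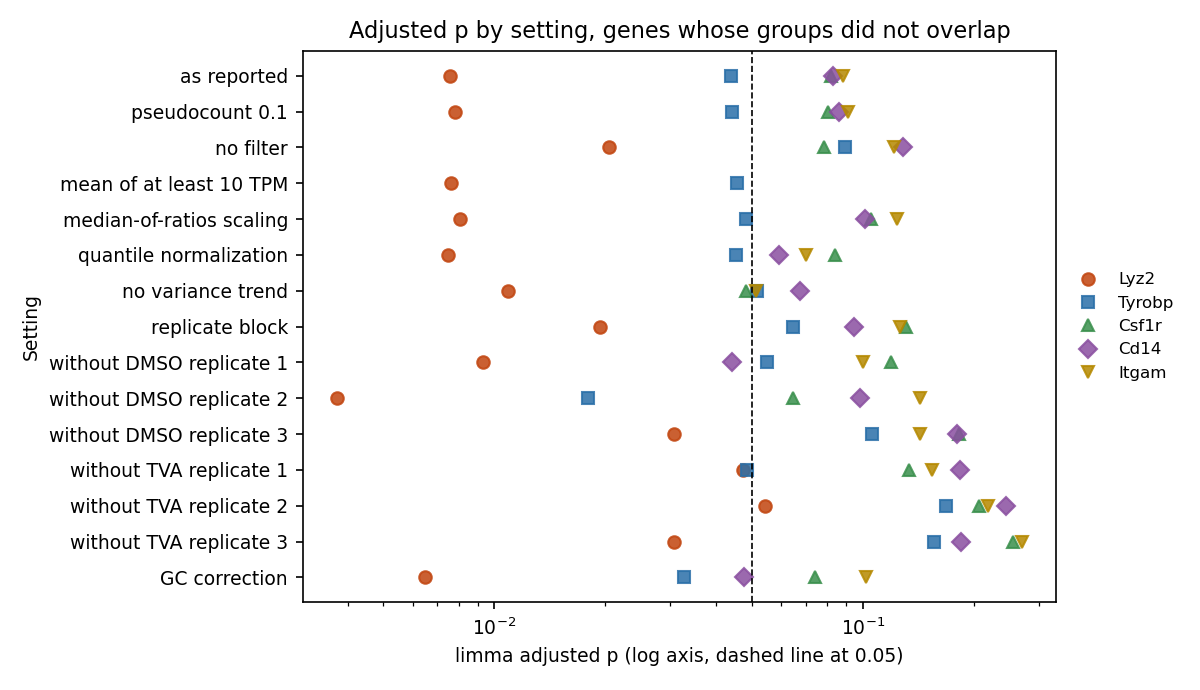
Limma adjusted p (log axis, dashed line at 0.05) of the 5 genes whose groups did not overlap, under the fit as reported and each alternative setting. Lyz2 lies left of the line except without TVA replicate 2 (0.054), Tyrobp crosses it in 7 of 14 alternatives, and Itgam lies right of it in every setting. Csf1r, Cd14 and Itgam have no point where a mean of at least 10 TPM was required.

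For each of the 9 genes, the genes of most similar pattern were sought among 8935 tested genes averaging 5 TPM or more, by the Pearson correlation of log2(TPM + 1) over the 6 libraries. The libraries form the 2 groups compared, so a difference between the groups enters each r, and no p is given. For Lyz2 they were Lpcat3, an enzyme that remodels membrane phospholipids, Kpna6, a nuclear import receptor, and Slc25a30, a mitochondrial carrier (r = 0.996, 0.995 and 0.994). For Tyrobp they included Sec23ip, a protein of the secretory pathway, and Cat, which encodes catalase (r = 0.998 and 0.996). The closest gene to Fcer1g, Ppdpf, had a lower r of 0.943, and among the closest to other genes were Mrpl37 (Cst3), Rpp14 (Csf1r), Donson (Cd14), Mfsd6 (Itgam) and Tubgcp3 (Lgals3), at 0.985 to 0.996.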

How the data were processed

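Expression was measured by bulk RNA-seq in 3 DMSO and 3 TVA libraries of activated mouse CD8+ T cells (SMARTER mRNA-Seq libraries). The authors deposited one table of TPM per gene symbol. The submitters' processing notes name STAR, RSEM and mm10, and versions and annotation are not given in the sources used here. TPM keeps no depth, so depth is unknown, no counting interval is given, and a 0 means only that a gene is listed at 0.

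TPM values were used as deposited, and columns were assigned by the name in each sample's description. Of 24589 genes, 10866 with at least 1 TPM in at least 3 libraries were tested with limma 3.58.1 (R 4.3.3, moderated variances with a trend, two-sided) on log2(TPM + 1), a scale that understates changes of low genes. Benjamini-Hochberg adjustment was over all genes tested, with a threshold of 0.05. The fit was tested on simulated data. None of the 9 genes was under the filter, so the permutation test planned for such genes was not needed.

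Alternatives were a pseudocount of 0.1, no filter, a required mean of 10 TPM, median-of-ratios scaling, quantile normalization, no variance trend, a replicate block and the omission of each library. A GC correction (loess of deviations on transcript GC, span 0.5, with GC known for 97.4% of genes tested) was added after seeing the data. The 9 genes and the marker and partner lists, written by hand, were chosen with earlier results of these data known. The genes named were the 9, every listed gene past the threshold, and set partners, ligands or relatives of the 9 whatever their result. Adgre1 and Spi1 belong to that set, whereas Fcgr1, C1qc, Cd33, Mertk, Mrc1, Cd163 and Ly6g were chosen after their values were seen, as markers at low levels. Icam1, Icam2, Fermt3, Tln1, Csf2, Csf2ra, Csf2rb, Csf2rb2, S100a8, Mmp8, Lamp1 and Lamp2 were also named after their values were seen, to show what the lists held. Some genes that the rule on similar patterns gives are not reported here. Transcript sequences, GC content and positions came from GENCODE vM21 (GRCm38), using the principal transcript. Figures were drawn with matplotlib 3.10.9.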

Additional observations from a re-analysis of the deposited data

How the results depend on the processing

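Of the 9 genes, 2 were called as reported. The count was 1 with no filter and 1 with a replicate block, and 0 to 2 when a library was left out (0 without TVA replicate 2, 1 without DMSO replicate 3 or TVA replicate 3). With the GC correction it was 3, with Cd14 added. Without the variance trend and without DMSO replicate 1 it was 2, of which 1 was shared with the reported calls, since Tyrobp was lost and Csf1r or Cd14 gained. Of the listed genes outside the 9, 27 were called, against 14 with no filter, 10 with a mean of at least 10 TPM, 8 with a replicate block, and 3 to 38 when a library was left out (13 without DMSO replicate 3 and 6, 3 and 4 without TVA replicates 1, 2 and 3). Over the whole table, 925 of 10866 genes tested were called as reported, 494 of 16749 with no filter and 218 with a replicate block. With a mean of at least 10 TPM it was 608 of 7563. Without DMSO replicates 1, 2 and 3 the calls were 945, 2242 and 294, and without TVA replicates 1, 2 and 3 they were 125, 102 and 113. Calls were thus lost over the whole table too. Fewer libraries or tested genes enter several of these fits, and the cause of the other shifts was not tested. The labels do not say whether replicate numbers pair the samples. Deviations of samples with the same number from their group means correlated at 0.16, 0.03 and -0.08. With 3 libraries a group, these values cannot show whether the samples were paired. Log2 changes that turned sign were small in both fits. With single libraries left out, the log2 change ranged from -0.163 to 0.0477 for Fcer1g (above 0 without DMSO replicate 2 and, at 0.0343, without TVA replicate 3), from -0.0773 to 0.0498 for Syk (above 0 without DMSO replicate 1) and from -0.0463 to 0.139 for Lgals1 (below 0 without DMSO replicate 1). Syk was at 0.0073 with quantile normalization, and Cst3 at 0.0016 and Klrk1 at -0.0089 under the GC correction. Of 122 values of the 9 genes under alternatives, 108 kept their direction and side of the threshold, 8 lost the call, 3 gained it and 3 turned sign. The 3 libraries a group and the unknown depth limit what can be said of Csf1r, Cd14 and Itgam.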

Other observations

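Lists of other cell types that a CD8+ T cell preparation could hold gave these values. Of 7 NK cell genes, 3 were tested and 2 fell with TVA. Gzma, the granzyme A gene of NK and cytotoxic T cells, fell from 5.03, 4.62 and 4.71 TPM to 1.55, 1.92 and 1.69 TPM (log2 change -1.09, limma adjusted p 6e-04). The NK receptor gene Klra9 fell from 1.42 to 1.64 TPM under DMSO to 0.92 to 1.14 TPM under TVA (log2 change -0.33, limma adjusted p 0.048). Of 13 alternative settings, Gzma passed in 13 and Klra9 in 3. Of 10 red cell and platelet genes, 7 were tested and 3 fell, the globin gene Hbb-bt (log2 change -0.67), the platelet chemokine gene Ppbp (-0.55) and the platelet integrin gene Itga2b (-0.43), with limma adjusted p of 0.012, 0.044 and 0.031. They passed in 11, 5 and 7 of 13 alternative settings. Cd40lg, the helper T cell ligand for CD40, was the 1 gene of 3 tested among the CD4 T cell genes that fell (log2 change -0.33, limma adjusted p 0.030). It passed in 7 of 13 alternative settings. Of 9 B cell genes, 1 was tested and 0 passed, with a summed level of 11.6 to 15.1 TPM under DMSO and 11.04 to 11.4 TPM under TVA, and of 8 stromal genes, 2 were tested and 0 passed. In these 5 lists 0 genes rose by limma, and at an unadjusted p under 0.05, 1 stromal gene was higher.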
